A study of Homo sapiens with 6 samples.

Results

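The RNA of 30 genes of the G2 phase and of mitosis was followed in K562 leukemia cells treated with an siRNA or with all-trans retinoic acid (ATRA). The members are a list of gene names, taken as all probe sets that the platform annotation assigns to the 30 genes. All 30 were measured, among 19775 genes in all, by 64 of the 41091 probe sets that the annotation gives to 1 gene. K562 is a human erythroleukemia cell line, grown here as 1 line without donors. The siRNA, named RNAi8 in the labels, and the scrambled RNA were nucleofected at up to 200 nM, and 24 h later the cells received ATRA or the DMSO control. The arrays are siRNA with ATRA in experiments 1 and 3, scrambled RNA with ATRA in experiments 1 and 3, siRNA with DMSO in experiment 2, and scrambled RNA with DMSO in experiment 2, 1 array each. ATRA and DMSO were therefore never used in the same experiment, so treatment and experiment cannot be told apart. Values are log2 signals of Affymetrix HG-U133 Plus 2.0 arrays, and a difference of 1 is a doubling.

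Entry into mitosis is driven by CDK1 bound to cyclin A or cyclin B, and the Polo and Aurora kinases carry that signal to the centrosomes, the spindle and the chromosomes. The spindle checkpoint holds the anaphase-promoting complex (APC/C) back until all kinetochores are attached, and the complex then marks cyclin B and securin for destruction. Most of these genes are transcribed late in the cell cycle, under the MuvB complex with B-MYB and FOXM1, and are kept low in resting cells by the DREAM complex. Their RNA in a culture thus depends on how many cells are in G2 and mitosis and on the RNA per cell, and on bulk arrays these cannot be told apart. ATRA is a ligand of the retinoic acid receptors and slows growth in many myeloid leukemia cells, and PRAME, the gene named in the title of the study, is known as a repressor of retinoic acid receptor signalling.

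The labels were checked first. PRAME signal was 12.13, 12.14 and 12.10 in siRNA cells of experiments 1, 2 and 3, against 13.00, 12.99 and 12.70 in scrambled cells. Erythroid and megakaryocytic marker genes were at or above the median signal of all probe sets (5.99) in 10 of 10 measured, TFRC highest at 13.34. Of 8 T and NK lymphocyte markers 1 reached that median, of 5 B lymphocyte markers 2, of 6 stromal markers 2 and of 6 epithelial markers 3, among them KRT19 at 10.34. Experiment 3 stood apart from the others: the 3' probe set of the ACTB control exceeded its 5' probe set by 2.98 and 3.36, against 0.63 to 0.92 in experiments 1 and 2. The same gap of GAPDH was 1.20 and 0.74 in experiment 3, against 0.03 to 0.08 in experiments 1 and 2. Its arrays correlated with the others at 0.979 to 0.982 across probe sets, against at least 0.9965 between arrays of experiments 1 and 2. The ATRA differences are given for experiments 1 and 3 apart, or the arrays of each are shown.

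The G2 and mitosis genes were strongly expressed in these cells. The median over the 30 genes was 10.30, against 6.73 over all genes, and 18 of them lay above 10, a count not made over all genes. Every member was at or above the median of all probe sets, from UBE2C at 6.15 to CKS2 at 11.95. So were 12875 of all 19775 genes, each taken by its brightest probe set. UBE2C, the ubiquitin-conjugating enzyme of the APC/C, was barely above that median, so its differences carry little signal. Levels of different genes come from different probes and are not ranked. Within experiments 1 and 2 the members varied little, as did genes in general: the SD over those 4 arrays had a median of 0.06, against 0.08 over all genes, and reached 0.11 at most, in UBE2C. Over all 6 arrays the SD ran from 0.06 in CDK1 to 0.46 in CENPA. The heatmap of all arrays shows this difference between experiment 3 and the other experiments.

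**Figure D1:**
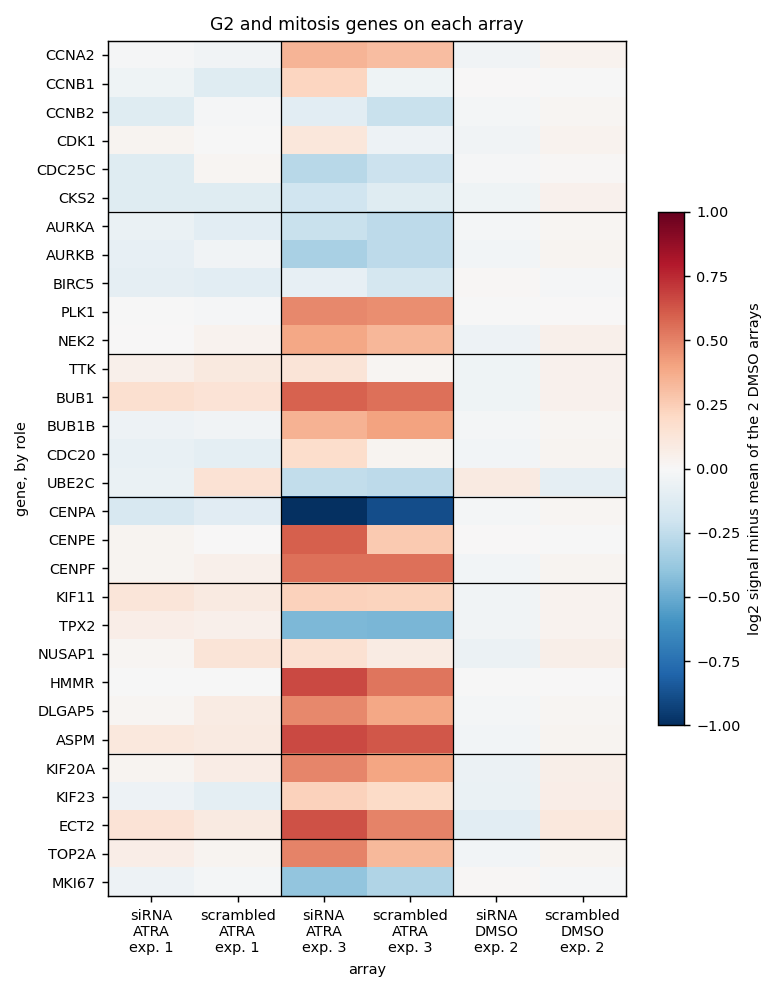
Log2 signal of each of the 30 genes (rows, grouped by role) on each array (columns), minus the mean of the 2 DMSO arrays. Colour runs from 1 lower (blue) to 1 higher (red). The arrays of experiment 1 stay close to the DMSO arrays, and those of experiment 3 differ in both directions, with CENPA lowest.

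The first comparison asks whether cells with the siRNA express the mitotic programme at another level than cells with scrambled RNA. No member passed it. In the limma fit with treatment as a covariate, 0 of the 30 members and 0 of 19775 genes (0%) had an adjusted p under 0.05 after Benjamini-Hochberg adjustment. At an unadjusted p under 0.05 there were 0 members, against 255 genes in all (1.29%). PRAME itself, with a difference of -0.78, did not pass after adjustment in this fit, so not passing does not show an unchanged gene. With the experiment as a block, which compares arrays within experiments, 5 genes passed (0.0253%), none of them a member, and 0 members had an unadjusted p under 0.05, against 1268 genes (6.41%). PRAME was among those 5 genes, with an adjusted p of 0.000997 in limma with the block. In that blocked limma fit the 95% intervals of all 30 members lay between -0.20 and 0.27. The siRNA and scrambled values overlapped in all 30 members, and the share of all genes with such an overlap was not counted. TTK (the checkpoint kinase MPS1) is an example: it stood at 9.70, 9.60 and 9.77 in siRNA cells of experiments 1, 2 and 3, against 9.74, 9.69 and 9.67 in scrambled cells. CDC20, the APC/C activator that the checkpoint restrains, stood at 10.67, 10.72 and 10.92 in siRNA cells, against 10.64, 10.77 and 10.77 in scrambled cells. In both genes the siRNA array was lower in experiment 2 and higher in experiment 3.

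Of the regulators of CDK1, CCNB1 (cyclin B1, which activates CDK1 at entry into mitosis) had the smallest p in the siRNA comparison. It stood at 11.22, 11.27 and 11.48 in siRNA cells of experiments 1, 2 and 3, against 11.15, 11.26 and 11.22 in scrambled cells. The siRNA array was higher in each experiment, by 0.07, 0.01 and 0.26, so most of the mean difference of 0.12 came from experiment 3. Its SE in the limma fit (3 arrays each) was 0.11 without the block and 0.055 with it. The second probe set of CCNB1 gave 9.92, 9.94 and 10.58 in siRNA cells, against 9.86, 9.93 and 10.34 in scrambled cells, in the same direction. CDC25C, the phosphatase that removes the inhibitory phosphates from CDK1, stood at 8.52, 8.63 and 8.36 in siRNA cells, against 8.66, 8.65 and 8.42 in scrambled cells. It was lower in each experiment, by -0.14 in experiment 1 and less far from 0 in the others. Its mean difference was -0.07, with an SE of 0.11 without the block and 0.055 with it. With all its probe sets averaged, the mean difference was -0.04.

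Among the kinases and the passenger complex, BIRC5 (survivin, which brings Aurora B to the centromere) stood at 10.94, 11.04 and 10.95 in siRNA cells of experiments 1, 2 and 3. The scrambled arrays read 10.92, 11.02 and 10.86, so the siRNA array was higher in each experiment, by at most 0.09. AURKB, the Aurora B kinase that corrects faulty attachments, stood at 8.63, 8.69 and 8.39 in siRNA cells, against 8.68, 8.74 and 8.45 in scrambled cells. Its difference was nearly equal in the 3 experiments, between -0.06 and -0.05. BUB1B (BubR1, a part of the checkpoint complex that holds the APC/C back) stood at 10.24, 10.27 and 10.63 in siRNA cells, against 10.25, 10.31 and 10.69 in scrambled cells. It too was lower in each experiment, with differences between -0.06 and -0.01.

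Of the centromere genes, CENPE (the kinesin that moves chromosomes to the spindle equator) stood at 9.65, 9.63 and 10.23 in siRNA cells, against 9.64, 9.63 and 9.89 in scrambled cells. Its pairs in experiments 1 and 2 were almost equal, and the difference of 0.33 in experiment 3 was the largest of any member in any experiment. CENPA, the histone variant that marks centromeres, stood at 9.28, 9.43 and 8.42 in siRNA cells, against 9.34, 9.47 and 8.56 in scrambled cells. It was lower in each experiment, with differences of -0.05, -0.04 and -0.13. Another probe set, which the annotation gives to CENPA and SLC35F6 together, differed by -0.04, -0.03 and 0.11, so it was higher in experiment 3. None of these 7 genes passed the limma test, with the adjusted p at 1.00 without the block and at least 0.777 with it. They were the only members with the same sign in all 3 experiments. The 4 lower ones (CDC25C, AURKB, BUB1B and CENPA) are 13.3% of the members, against 11.9% of all genes, and the 3 higher ones (CCNB1, BIRC5 and CENPE) are 10.0%, against 13.0%.

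**Figure D2:**
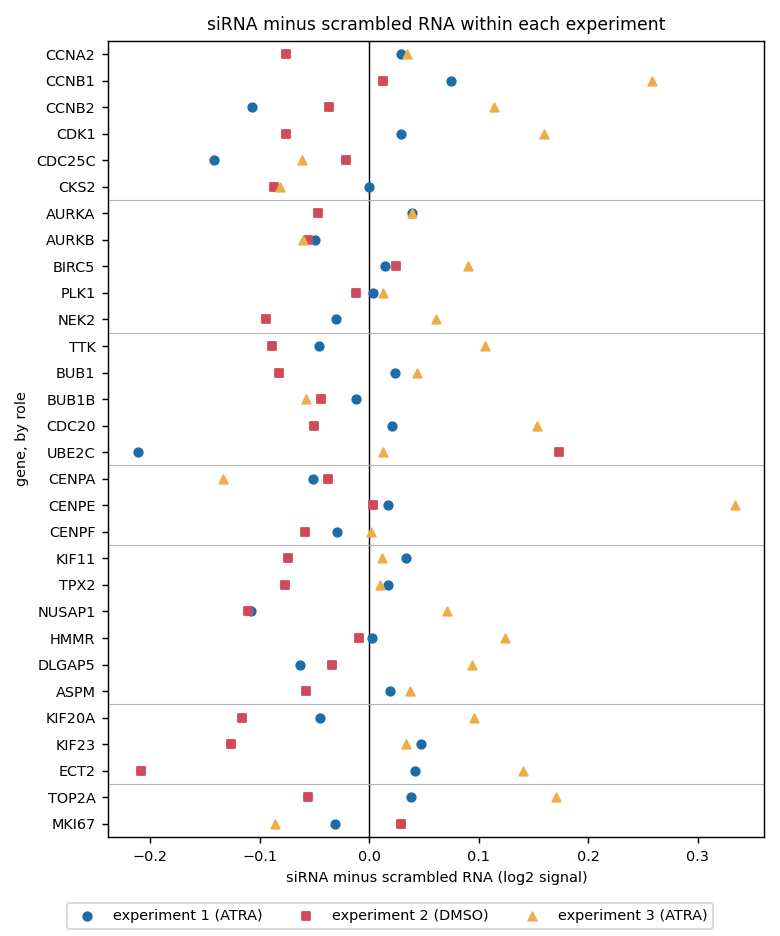
Difference in log2 signal, siRNA minus scrambled RNA, for each of the 30 genes (rows, by role) in experiment 1 (circles, ATRA), experiment 2 (squares, DMSO) and experiment 3 (triangles, ATRA), 1 array of each kind per point. Most squares lie left of 0 and most triangles right of it, and few genes lie on one side in all 3 experiments.

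The direction of the small differences followed the experiment more than the gene. In experiment 2, under DMSO, 25 of the 30 genes were lower with the siRNA (83.3%, against 48.1% of all genes), with a median of -0.06. In experiment 3, under ATRA, 24 of 30 were higher (80.0%, against 50.1%), with a median of 0.04. In experiment 1, also under ATRA, 16 were higher (53.3%, against 50.5%), 13 were lower (43.3%, against 44.1%) and CKS2, the small subunit of CDK1 complexes, was equal on both arrays. The medians over all genes were within 0.01 of 0 in each experiment. Like the members, 12875 genes lay at or above the median of all probe sets. Of these, 54.1% were lower in experiment 2, 49.2% higher in experiment 3 and 56.3% higher in experiment 1. Each of these counts compares a single pair of arrays, and genes are not replicates.

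The 6 spindle genes and the 3 cytokinesis genes went one way within experiments 2 and 3. All 9 were lower with the siRNA in experiment 2, as were 25 of the 30 members and 48.1% of all genes. All 9 were higher in experiment 3, as were 24 of the 30 members and 50.1% of all genes. These 9 genes thus shared the direction of most members. The share of all genes with both directions was not counted. Of 17 spindle genes among the other G2/M genes described below, 12 were lower in experiment 2 and 10 higher in experiment 3. Of 4 cytokinesis genes there, 3 were lower in experiment 2 and 2 higher in experiment 3. ECT2, which activates RhoA at the cleavage furrow, stood at 9.45, 9.21 and 9.96 in siRNA cells of experiments 1, 2 and 3, against 9.41, 9.42 and 9.82 in scrambled cells. It had the lowest difference in experiment 2, at -0.21, and was higher with the siRNA in the other 2. KIF23 and KIF20A, kinesins of the central spindle, differed by -0.13 and -0.12 in experiment 2 and by 0.03 and 0.10 in experiment 3. The spindle genes KIF11, TPX2, NUSAP1, HMMR, DLGAP5 and ASPM ranged from -0.11 to -0.01 in experiment 2 and from 0.01 to 0.12 in experiment 3. UBE2C, on its low signal, differed by -0.21, 0.17 and 0.01 in experiments 1, 2 and 3.

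Whether the siRNA difference depends on ATRA was tested as the difference of the siRNA effects, the mean of experiments 1 and 3 minus experiment 2. It passed for 0 of 30 members and 0 of all genes (0%) in limma, and at an unadjusted p under 0.05 for 0 members and 262 genes (1.32%). With the experiment as a block it again passed for 0 members and 0 genes (0%). At an unadjusted p under 0.05 there were then 1 member, ECT2 at 0.30, and 655 genes (3.31%). The value was above 0 in 26 of the 30 (86.7%), against 51.0% of all genes, and its median was 0.09, against 0.00 over all genes. Among the 12875 genes at or above the median of all probe sets, 55.8% were above 0. Experiment 1 alone minus experiment 2 gave a median of 0.05 and experiment 3 alone minus experiment 2 gave 0.12. DMSO was used in 1 experiment, so these values rest on a single DMSO pair.

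The second comparison sets the 2 ATRA experiments against the DMSO experiment, and asks whether ATRA was accompanied by another level of the mitotic genes. CYP26A1, the enzyme that degrades retinoic acid, served as a check of the treatment labels. It stood at 11.33 and 12.03 in the ATRA experiments and at 5.74 in the DMSO experiment. No G2 and mitosis gene passed this comparison. CYP26A1, with a difference of 5.94, did not pass on the experiment means either, so not passing does not show an unchanged gene. On the experiment means, limma called 0 of 30 members and 0 of all genes (0%), and at an unadjusted p under 0.05 there were 0 members and 235 genes (1.19%). With the experiment as a random block over the 6 arrays 2 genes passed (0.0101%), CYP26A1 among them and none a member. With 2 experiments against 1 the intervals are wide: among the members they reached from -1.84 to 1.37.

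Experiment 1 differed little from experiment 2 in these genes. The differences of the 30 members ran from -0.14 to 0.15, 15 were above 0 and 15 below, and the median was 0.00. In a limma fit of those 4 arrays alone, whose spread is that between arrays of the same experiment, 132 genes passed (0.668%) and 0 members did. None of the members differed by 0.5 or more, against 0.541% of all genes.

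Experiment 3 differed from experiment 2 far more, in both directions. In the same kind of fit 21 of 30 members passed (70.0%), against 34.3% of all genes. Of these, 14 were higher in experiment 3 (46.7%, against 21.6%) and 7 were lower (23.3%, against 12.7%). The median difference was 0.16, with a range from -0.96 to 0.64. BUB1, CENPA, CENPF, HMMR, ASPM and ECT2 differed by 0.5 or more, which is 20.0% of the members, against 14.6% of all genes. The larger gaps between 3' and 5' control probe sets moved with experiment 3, as given above, and their part in these differences was not tested. The 14 higher genes were CCNA2 (cyclin A2), the kinases PLK1, NEK2 and BUB1, BUB1B, CENPE, CENPF, KIF11, HMMR, DLGAP5, ASPM, KIF20A, ECT2 and TOP2A, between 0.23 and 0.64. The 7 lower genes were CDC25C, AURKA, AURKB, UBE2C, CENPA, TPX2 (which activates Aurora A on the spindle) and MKI67, between -0.96 and -0.24. The remaining 9, CCNB1, CCNB2, CDK1, CKS2, BIRC5, TTK, CDC20, NUSAP1 and KIF23, differed by -0.16 to 0.21.

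**Figure D3:**
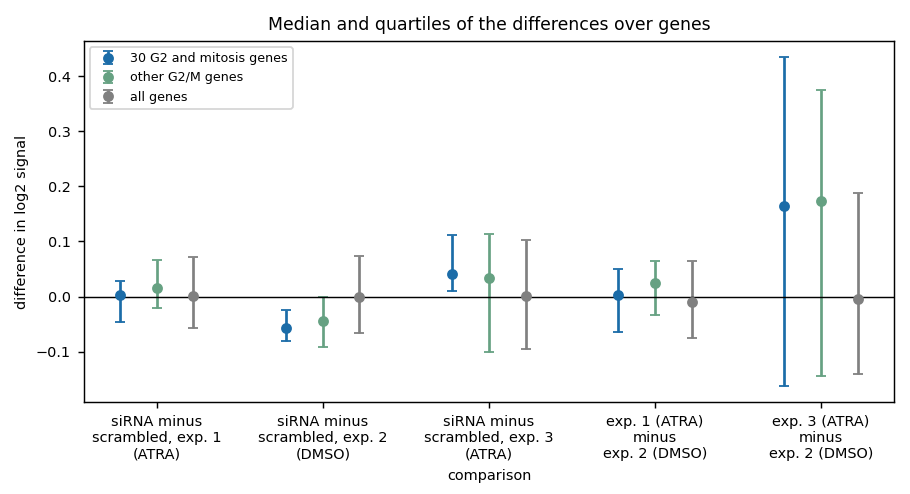
Median (point) and quartiles (bars) over genes of the differences in log2 signal, for the 30 G2 and mitosis genes, 85 other G2/M genes and all 19775 genes. The medians of the 30 genes are -0.06 with the siRNA in experiment 2, 0.04 in experiment 3, 0.00 for experiment 1 minus experiment 2 and 0.16 for experiment 3 minus experiment 2.

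Of the members, 4 lay higher on all 4 ATRA arrays than on both DMSO arrays (13.3%, against 13.5% of all genes). BUB1, a checkpoint kinase of the kinetochore, stood at 11.13 and 11.11 in experiment 1 and 11.56 and 11.52 in experiment 3, against 10.93 and 11.01 under DMSO (siRNA before scrambled RNA in each pair). ASPM, a spindle pole protein, stood at 10.58 and 10.56 in experiment 1 and 11.13 and 11.10 in experiment 3, against 10.44 and 10.50 under DMSO. In both, experiment 1 lay just above the DMSO arrays and experiment 3 well above them, and the mean differences were 0.36 ± 0.30 for BUB1 and 0.37 ± 0.35 for ASPM (SE of the limma fit, 2 experiments against 1). CENPE stood at 9.65 and 9.64 in experiment 1 and 10.23 and 9.89 in experiment 3, against 9.63 and 9.63 under DMSO, so experiment 1 exceeded DMSO by 0.02. KIF11, the plus-end motor that pushes spindle poles apart, stood at 9.82 and 9.79 in experiment 1 and 9.93 and 9.92 in experiment 3, against 9.66 and 9.74 under DMSO.

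A further 6 members lay lower on all 4 ATRA arrays than on both DMSO arrays (20.0%, against 13.2% of all genes): CKS2, AURKA, AURKB, BIRC5, CENPA and MKI67. CENPA stood at 9.28 and 9.34 in experiment 1 and 8.42 and 8.56 in experiment 3, against 9.43 and 9.47 under DMSO. It differed from DMSO by -0.14 in experiment 1 and by -0.96 in experiment 3. The probe set that the annotation gives to CENPA and to SLC35F6 together differed by -0.06 and -0.31 in the same experiments. AURKA, the Aurora A kinase of the spindle poles, stood at 10.74 and 10.70 in experiment 1 and 10.58 and 10.54 in experiment 3, against 10.78 and 10.83 under DMSO. AURKB stood at 8.63 and 8.68 in experiment 1 and 8.39 and 8.45 in experiment 3, against 8.69 and 8.74 under DMSO. On average AURKA differed from DMSO by -0.09 and AURKB by -0.06 in experiment 1. MKI67, whose product Ki-67 coats mitotic chromosomes and is the usual marker of dividing cells, stood at 10.14 and 10.17 in experiment 1 and 9.80 and 9.89 in experiment 3, against 10.21 and 10.18 under DMSO. Its arrays of experiment 1 were within 0.07 of DMSO. The adjusted p of these 8 named genes was 0.995 in the limma fit of experiment means.

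Different probe sets of the same gene gave different answers in experiment 3. Of the 64 probe sets of the members 55 were at or above the median of all probe sets, and 16 members had 2 or more of these. In experiment 1 minus experiment 2 the probe sets of a gene lay close together, with a median range of 0.05 over the 16 genes, against 0.10 over all 5798 genes with 2 or more. In experiment 3 minus experiment 2 the median range was 0.84, against 0.49 over all such genes. Of the 55 probe sets 22 differed by 0.5 or more in experiment 3 (40.0%, against 24.9% of all probe sets at or above the median), and 0 did in experiment 1 (0%, against 0.741%).

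NUSAP1, which bundles spindle microtubules, gave 11.40 and 11.33 in experiment 3, against 11.19 and 11.30 in experiment 2, on its brighter probe set. Its other probe set gave 6.94 and 6.98 in experiment 3, against 9.76 and 9.75 in experiment 2. The same gene thus differed by 0.12 on one probe set and by -2.80 on the other. TOP2A, the topoisomerase that untangles sister chromatids, gave 11.84 and 11.67 in experiment 3, against 11.31 and 11.37 in experiment 2, on one probe set, and 10.48 and 10.46 in experiment 3, against 11.83 and 11.93 in experiment 2, on another. The second of these was the brighter in experiments 1 and 2. ASPM differed by 0.64 in experiment 3 on its brightest probe set and by -2.26 on another.

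Further members were split in the same way. BIRC5 ran from -1.77 to 1.02 over its 4 probe sets, and CDC25C from -1.52 to -0.25 over 2. CDK1, the kinase that drives mitosis, ran from -1.05 to 0.03, and NEK2, a centrosome kinase, from -0.92 to 0.36. MKI67 ran from -0.35 to 0.68, and its brightest probe set was its lowest. With 1 probe set 0.5 or more higher and another 0.5 or more lower, ASPM and BIRC5 stood at opposite ends in experiment 3 (12.5% of the 16, against 6.93% of all such genes), and no gene did so in experiment 1 (0 of 16 members, 0% of all). HMMR, a microtubule-binding protein of the spindle, and CENPF, a kinetochore protein, were higher in experiment 3 by both probe sets, by 0.60 and 0.72 for HMMR and by 0.55 and 0.97 for CENPF. Where each probe set lies on its transcript was not analysed here. When all probe sets of a gene were averaged, the median ATRA difference of the 30 members was -0.01, against 0.09 with the brightest probe set. By that average the ATRA differences of ASPM and MKI67 turned sign, to -0.42 and 0.07, that of BUB1 was 0.12 and that of AURKB -0.31.

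**Figure D4:**
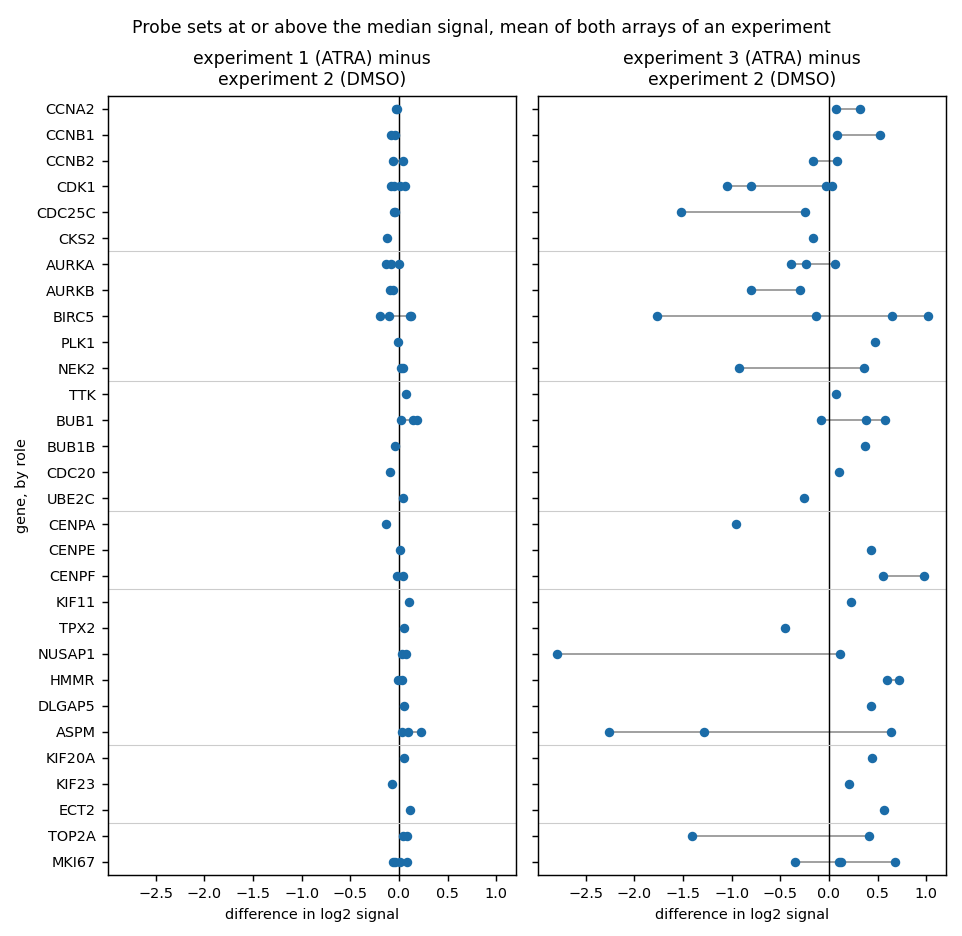
Difference in log2 signal of each of the 55 brighter probe sets of the 30 genes (rows, by role), experiment 1 minus experiment 2 on the left and experiment 3 minus experiment 2 on the right, means of both arrays of an experiment. Lines join probe sets of a gene. They lie close together on the left and run from -2.80 to 1.02 on the right.

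The other genes of G2 and mitosis were described from a list of 87, of which 85 were measured by a probe set of their own. None passed in the siRNA comparison, with or without the block, in the ATRA comparison or in the difference of siRNA effects (0 of 85 in each limma fit). With the siRNA, 62 of 85 were lower in experiment 2 (72.9%, against 48.1% of all genes). In experiment 1 and in experiment 3 53 were higher (62.4% each, against 50.5% and 50.1%). Without the block, the 4 smallest p in the siRNA comparison belonged to LIN37 (a subunit of the MuvB complex) at -0.18, TACC3 (which stabilises spindle microtubules) at -0.15, MAD1L1 (the kinetochore anchor of the checkpoint) at -0.08 and SKA1 (which couples kinetochores to microtubules) at -0.17. With the block 5 of the 85 had an unadjusted p under 0.05 (5.88%, against 6.41% of all genes), namely UBE2S, SKA1, TACC3, LIN37 and NFYA. In the ATRA comparison the smallest p belonged to CEP55 (abscission) at 0.68, WEE1 (the kinase that inhibits CDK1) at 0.33, SPC25 (a subunit of the NDC80 complex) at -0.47 and SGO1 (which protects centromeric cohesion) at 0.43. In experiment 1 alone against experiment 2 these 4 stood nearer to 0, at 0.30 for CEP55, 0.23 for WEE1, -0.24 for SPC25 and 0.18 for SGO1. In the difference of siRNA effects they were FZR1, the APC/C activator of late mitosis, at -0.21, CKAP2, a spindle-associated protein, at 0.28, KIF15, a spindle kinesin, at 0.20 and MAD2L1, the checkpoint protein MAD2, at 0.15. CEP55 stood at 8.98 and 8.99 in experiment 1 and 9.80 and 9.67 in experiment 3, against 8.61 and 8.75 under DMSO. Its ATRA arrays thus all lay above the DMSO arrays, with experiment 3 furthest above. In the limma fit of experiment 3 alone 53 of the 85 passed (62.4%, against 34.3% of all genes), and in that of experiment 1 alone 0 did (against 0.668%).

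The members share letters in their promoters that their choice did not use. RefSeq promoter sequences of build GRCh38.p14, from 250 bases before to 50 after each annotated start, were matched by symbol for 25 of the 30 genes, with 31 starts in all. UBE2C, TTK, TPX2, AURKA and BIRC5 are named only. The cell cycle homology region (CHR), bound by the MuvB complex, was searched in the form TTTGAA and in the form TTTAAA. The CCAAT box, bound by NF-Y, was searched by its name, and every search covered both strands. On the opposite strand the first CHR form reads TTCAAA, the second form reads as it does here, and the CCAAT box reads ATTGG. Of the 31 member promoters 24 held a CHR (77.4%), against 24.0% of all 35116 promoters. A CCAAT box was in 26 (83.9%), against 34.6%, and both were in 21 (67.7%), against 9.27%. The members were not alone in this. In 105 promoters of 78 of the other G2/M genes, 53.3% held a CHR, 58.1% a CCAAT box and 34.3% both. These shares lay between those of the members and those of all promoters. The same held for the form TTTGAA alone, in 67.7% of member promoters, 45.7% of the other G2/M promoters and 15.2% of all. It did not hold for TTTAAA, in 35.5%, 11.4% and 12.2%. A further motif, the GC box GGGCGG, was also more frequent in the members. It was in 80.6% of member promoters, 69.5% of the other G2/M promoters and 15786 of all 35116 promoters.

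In 11 promoters, of CDC20, ASPM, CCNB1, KIF20A, HMMR, CKS2, CDK1, KIF11, NUSAP1, CCNB2 and PLK1, a CCAAT box lay 21 to 44 bases before a CHR, both upstream of the start. These are 35.5% of the member promoters, against 1.23% of all promoters, for spacings of 20 to 45 bases, limits that were chosen after the positions were seen. The share among the other G2/M genes was not counted. The 100 bases before the start are shown for 7 genes, to show this arrangement in 5 of them and 2 other layouts, in MKI67 and CENPE. Capitals mark the CCAAT box and both forms of the CHR on either strand, and the last letter is the base before the start. In HMMR a CCAAT box overlaps one on the opposite strand, and in MKI67 a CHR overlaps a CCAAT box.
CCNB2, chr15:59105046-59105145, plus strand: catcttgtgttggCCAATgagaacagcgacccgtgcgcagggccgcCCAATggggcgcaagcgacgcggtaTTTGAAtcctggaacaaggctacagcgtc
PLK1, chr16:23678789-23678888, plus strand: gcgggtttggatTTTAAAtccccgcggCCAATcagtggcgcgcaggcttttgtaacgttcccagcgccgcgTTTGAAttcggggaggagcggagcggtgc
CKS2, chr9:89311095-89311194, plus strand: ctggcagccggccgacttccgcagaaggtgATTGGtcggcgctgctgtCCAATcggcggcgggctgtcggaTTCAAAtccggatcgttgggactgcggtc
KIF20A, chr5:138179012-138179111, plus strand: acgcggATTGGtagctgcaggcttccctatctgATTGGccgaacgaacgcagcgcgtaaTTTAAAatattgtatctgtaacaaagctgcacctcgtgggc
HMMR, chr5:163460532-163460631, plus strand: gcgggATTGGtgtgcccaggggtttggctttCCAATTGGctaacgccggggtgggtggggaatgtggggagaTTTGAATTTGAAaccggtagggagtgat
MKI67, chr10:128126424-128126523, minus strand: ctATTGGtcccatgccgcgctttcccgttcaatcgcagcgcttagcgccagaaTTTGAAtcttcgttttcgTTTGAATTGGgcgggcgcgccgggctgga
CENPE, chr4:103198344-103198443, minus strand: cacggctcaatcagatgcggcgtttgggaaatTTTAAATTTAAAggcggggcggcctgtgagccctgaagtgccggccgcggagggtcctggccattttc

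In CCNB2 and CKS2 a CHR begins at -29 from the start, with a CCAAT box 25 and 23 bases upstream of it. PLK1 has a CHR at the same place with the CCAAT box 44 bases upstream, and a further CHR at -88. The 100 bases shown for CENPE hold the second CHR form at -68 and again at -62 and no CCAAT box, and those of MKI67 a CHR at -47 and at -29. These are matches of letters and not tests of binding. Of the 11 genes with this arrangement, 10 were lower with the siRNA in experiment 2 (all but CCNB1) and 10 were higher in experiment 3 (all but CKS2). In experiment 1, 7 were higher, 3 lower and CKS2 equal. Most of the whole set of 30 went the same way, 25 lower in experiment 2 and 24 higher in experiment 3. Of all genes 48.1% were lower in experiment 2, and 50.1% and 50.5% were higher in experiments 3 and 1. Whether this arrangement goes with the direction was not tested. In experiment 3 minus experiment 2, PLK1, the Polo kinase, stood at 7.61 and 7.59, against 7.12 and 7.13, and CCNB2, cyclin B2, at 11.33 and 11.22, against 11.42 and 11.45.

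**Figure D5:**
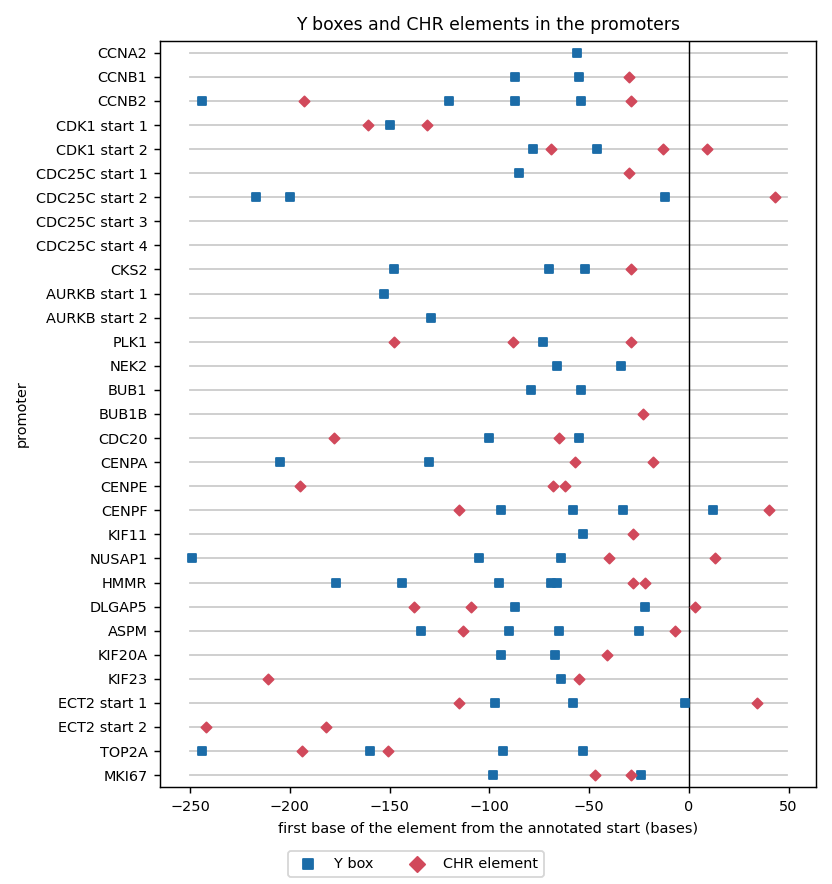
Positions of CCAAT boxes (Y box, squares) and CHR elements (diamonds) in the 31 promoters of 25 member genes, as bases from the annotated start at 0, on lines that span the window searched. In 11 promoters a square lies 21 to 44 bases left of a diamond with both left of 0, and the 2 starts of CDC25C without a symbol hold neither.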

How the data were processed

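RNA of K562 cells, isolated by a TRIzol-based protocol per the labels' protocols, was measured on 6 arrays. The deposited values are log2 signals per probe set, which the authors made with RMA per the submitters' processing notes; its version is not given in the sources used here. No column of values was left unused. Of 54675 probe sets, 62 are controls, 1801 list several genes and 11721 are unnamed here. Each gene was represented by its probe set with the highest mean, without a filter on dim probe sets. The number of arrays limits the precision.

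Differences were fitted in R 4.3.3 by limma 3.58.1, with eBayes moderation along an intensity trend, and p-values were adjusted by Benjamini-Hochberg over 19775 genes, with a threshold of 0.05. The siRNA was compared with scrambled RNA over 6 arrays with treatment as covariate, ATRA against DMSO on the mean of each experiment, and the difference of siRNA effects from 4 groups. A lone array or experiment is assumed to vary like the others. The code was tested on simulated data. The experiment numbers pair the samples, since each number is 1 experiment in the labels. Same-numbered arrays deviated together across genes (0.679, 0.795 and 0.883). Differently numbered arrays of experiments 1 and 2 also did, less strongly (0.402 and 0.534). Those of experiment 3 with the others gave -0.796 to -0.627.

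The members and lists were chosen with earlier results of these data known. Values on every array were planned for up to 8 members with the smallest p and the same sign in all 3 experiments (7 qualified), for the 8 furthest from 0 in ATRA minus DMSO with separate arrays, and 4 other G2/M genes were named per comparison. ECT2, PLK1 and the genes with split probe sets were named after their values were seen. Alternatives were the block, leaving out experiments or arrays, the probe set per gene, dim genes, the trend and quantile normalization.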

Additional observations from a re-analysis of the deposited data

How the results depend on the processing

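No member passed the siRNA comparison, the ATRA comparison on experiment means or the difference of siRNA effects under any alternative run, except in ATRA with experiment 3 alone against experiment 2, where 21 did. Leaving out replicates or arrays put the number of genes called with the siRNA at 0 to 2, the replicate block put it at 5, and the block without experiment 1, 2 or 3 at 1, 1 and 2. The members' median siRNA difference, -0.01, ran from -0.056 to 0.061 when experiments or arrays were left out, so its sign is not settled. Genes called for ATRA were 0 on experiment means, 4 with 6 arrays and no block, and 2 with the experiment as random block. Fits of 1 ATRA experiment against experiment 2 called 132 genes for experiment 1 and 6777 for experiment 3. Their spread is that between arrays of the same experiment, so they do not separate ATRA from experiment. The 8 genes described for ATRA passed with experiment 3, which is part of the difference they were chosen by. Over the fits without 1 experiment or array, the siRNA differences of members whose sign turned ran from -0.14 to 0.0012 for CDC25C, -0.062 to 0.26 for CENPE, -0.12 to 0.013 for AURKB, -0.31 to 0.18 for CENPA and -0.16 to 0.086 for BUB1B, in unblocked fits, which mix in the level of experiment 3. With the mean of all probe sets the ATRA difference turned to -0.42 for ASPM and to 0.068 for MKI67. The choice of the probe set by experiments 1 and 2 alone, made after seeing the data, moved TOP2A to a probe set that differed by -1.41 in experiment 3. Members called stayed at 0 in the siRNA and ATRA comparisons, and it was not run for experiment 3 alone. A single DMSO experiment limits every ATRA value, and the control gaps of experiment 3 those that use it.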
